A study of Mus musculus with 4 samples.

Results

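The cytosolic ribosomal protein genes were followed on 4 one-colour Affymetrix arrays of sorted mouse Langerhans cells, the dendritic cells of the epidermis. They were chosen by name: probe sets whose single gene symbol was Rpl or Rps followed by a digit, a stalk protein symbol (Rplp0, Rplp1 or Rplp2) or Rpsa, without the S6 kinase genes and Rps19bp1. This gave 101 of 22626 probe sets, for 49 gene symbols. The rule used no measured value, though it was set with earlier results of these data known. A filter on mean signal over the 4 arrays, set at the 40th percentile of all probe sets, left 87 of the 101 probe sets and 47 of the 49 symbols among 13576 tested.

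The groups were TCDD 1 and TCDD 2, from mice given 10 µg of TCDD (2,3,7,8-tetrachlorodibenzo-p-dioxin, a ligand of the aryl hydrocarbon receptor), and control 1 and control 2. TCDD 2 and control 2 came from back skin, while no skin site was named for TCDD 1 and control 1. Whether TCDD 1 and control 1 shared a site or experiment was not stated. They are treated below as 1 of the 2 sites by their labels only. All 4 were taken 24 h after treatment, by injection into the peritoneum in the design text, with cells sorted to 95% purity. The vehicle was DMSO and oil for control 1, and all RNA was amplified before labelling. Strain, age and sex were not given in the sources used here, nor whether an array stood for 1 animal or a pool, so p-values cover no more than the differences among these samples and these may be technical. The labels of control 2 conflict: the description calls it a control and the title names no TCDD, but TCDD stands in its treatment text. It was used as a control, and the count of calls, the median difference and the largest differences are given without it too. Each back skin ratio of TCDD to control rests on this array and cannot be given without it. The controls also carried different experiment dates, so site and experiment cannot be told apart.

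The ribosome is built of a small subunit, which reads the messenger RNA, and a large subunit, which joins amino acids, and each is an RNA core clad in ribosomal proteins. The stalk proteins of the large subunit recruit the elongation factors. Ribosomal proteins are made in near equal numbers, and their messenger RNAs begin with a C and a run of pyrimidines, the 5′ terminal oligopyrimidine (TOP) tract, through which mTOR signalling governs their translation. Langerhans cells take up antigen in the epidermis, carry it to lymph nodes and express the aryl hydrocarbon receptor.

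Array quality differed. The ratio of the 3′ to the 5′ actin control probe set was 3.48 on TCDD 1 and 7.71 on TCDD 2, against 49.7 on control 1 and 4.64 on control 2, and that of Gapdh was 9.55 and 15.9 on the TCDD arrays against 106.8 and 11.9 on the controls. A high ratio means that less of the signal reached the 5′ end of the RNA, so control 1 stood apart from the other 3. The summed signal of 12 Langerhans cell marker genes was 55040 and 55750 on the TCDD arrays, against 44610 and 66660 on the controls, with a median TCDD difference of 0.06 over the 11 tested. Among them Epcam, an adhesion molecule, had signals of 7541 and 8362 on the TCDD arrays and 8717 and 10032 on the controls, H2-Eb1, a class II antigen-presenting chain, had 5980 and 3972 against 1404 and 7042, and Cd207, the langerin gene that defines these cells, had 5343 and 2155 against 2120 and 7211. The summed signal of 9 of 12 listed T cell marker genes, those with a named probe set, was 1554 and 831 on TCDD 1 and 2, against 823 and 2283 on controls 1 and 2. In such bulk samples, fewer cells of a type and less RNA per cell cannot be told apart.

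Reference sequence was read for the ribosomal protein genes, to show the start regions of some that the results turn on. RefSeq (GRCm38.p6) held promoter entries for 42 of the 49 genes, 50 entries in all, each covering 250 bases before and 50 after the annotated start. The letters CCGGAA, the core of sites for ETS factors, were found on either strand in 56.0% of these entries, against 14.9% of 32851 entries of all genes. The YY1 core ATGGCG was found in 32.0% against 8.93%, the GC box GGGCGG in 52.0% against 35.7%, and the TATA letters TATAAA in 12.0% against 13.6%. A TOP-like word began on the coding strand within 10 bases of the annotated start in 36.0% against 12.5%. A C at the start followed by 4 pyrimidines was found in 16.0% against 2.51%. The TOP-like words searched were CTTTC (1 word), its close relatives CTTTT and likewise CTCTT, and also CTTCC, which can overlap each other and the ETS core. These matches describe letters and not bound sites, and the annotated start can lie some bases away from the start in use. Below are 80 bases before and 20 from the annotated start for 7 genes described later, on the coding strand, with the listed motifs in capitals. The capitals mark the TOP-like words near the start, the ETS core (CCGGAA, or its reverse complement), the GC box (GGGCGG, or its reverse complement) and the YY1 core, and some of them overlap.
Rps9 (chr7:3703961-3704060, plus strand): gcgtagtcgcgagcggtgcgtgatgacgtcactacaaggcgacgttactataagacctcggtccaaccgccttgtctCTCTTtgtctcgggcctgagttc
Rps10 (chr17:27635225-27635324, minus strand): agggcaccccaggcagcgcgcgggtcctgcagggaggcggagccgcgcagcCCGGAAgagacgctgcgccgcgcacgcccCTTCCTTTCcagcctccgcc
Rpl39l (chr16:10170148-10170247, plus strand): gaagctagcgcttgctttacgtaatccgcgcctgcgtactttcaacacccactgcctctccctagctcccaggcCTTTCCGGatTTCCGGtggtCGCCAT
Rps6 (chr4:86857348-86857447, minus strand): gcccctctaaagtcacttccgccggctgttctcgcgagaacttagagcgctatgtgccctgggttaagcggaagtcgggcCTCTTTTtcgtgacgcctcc
Rpl27 (chr11:101442165-101442264, plus strand): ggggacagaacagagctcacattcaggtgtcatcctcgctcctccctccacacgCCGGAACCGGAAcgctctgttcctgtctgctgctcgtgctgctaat
Rpl37 (chr15:5116533-5116632, plus strand): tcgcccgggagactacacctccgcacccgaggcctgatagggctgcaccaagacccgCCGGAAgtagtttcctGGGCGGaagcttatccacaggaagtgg
Rpl13a (chr7:45128726-45128825, minus strand): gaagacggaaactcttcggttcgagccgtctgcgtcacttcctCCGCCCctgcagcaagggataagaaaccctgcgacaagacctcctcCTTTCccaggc

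Rps9, Rps10 and Rpl39l are shown because each had a probe set higher on both TCDD arrays than on both controls. Rps6 is shown because its tested probe set was lower, and Rpl27, Rpl37 and Rpl13a because the ratios of a probe set ran in opposite directions at the 2 sites. Rps10 and Rps6 have a TOP-like word at the annotated start itself, and Rps9 has one 3 bases before it. Rps10, Rpl39l, Rpl27 and Rpl37 hold the ETS core, with 2 copies each in Rpl39l and Rpl27. Not all members share these motifs: Rplp0, Rps3 and Rpl39, among others, hold none of them in the same window.

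With TCDD, no ribosomal protein gene passed the test. Of the 87 tested probe sets, 0 were called higher and 0 lower at an adjusted p of 0.05 (limma, Benjamini-Hochberg over all 13576 probe sets), as were 0% of all tested probe sets, and the smallest adjusted p was 0.9999. An unadjusted p under 0.05 was reached by 3 of 87 (3.45%), all higher with TCDD, against 1.47% of all tested probe sets. The median log2 difference of TCDD minus control was 0.04 for the ribosomal protein probe sets, with quartiles of -0.08 and 0.16, against -0.01 for all tested probe sets, with quartiles of -0.20 and 0.20. A difference smaller than 0.25 in either direction was seen in 59 of the 87 (67.8%), against 60.1% of all tested. The 95% interval of a single probe set reached 0.746 to either side at the median, on the log2 scale, so changes of less than about that size could not be told from the spread on 4 arrays.

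Both TCDD arrays lay above both controls in 9 of 87 probe sets (12.4% of all tested), and both lay below in 6 of 87 (13.2% of all tested). Neither count made up a larger share than in the whole table. Small-subunit probe sets (43) had a median TCDD difference of 0.07 and large-subunit ones (42) of 0.01.

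**Figure D1:**
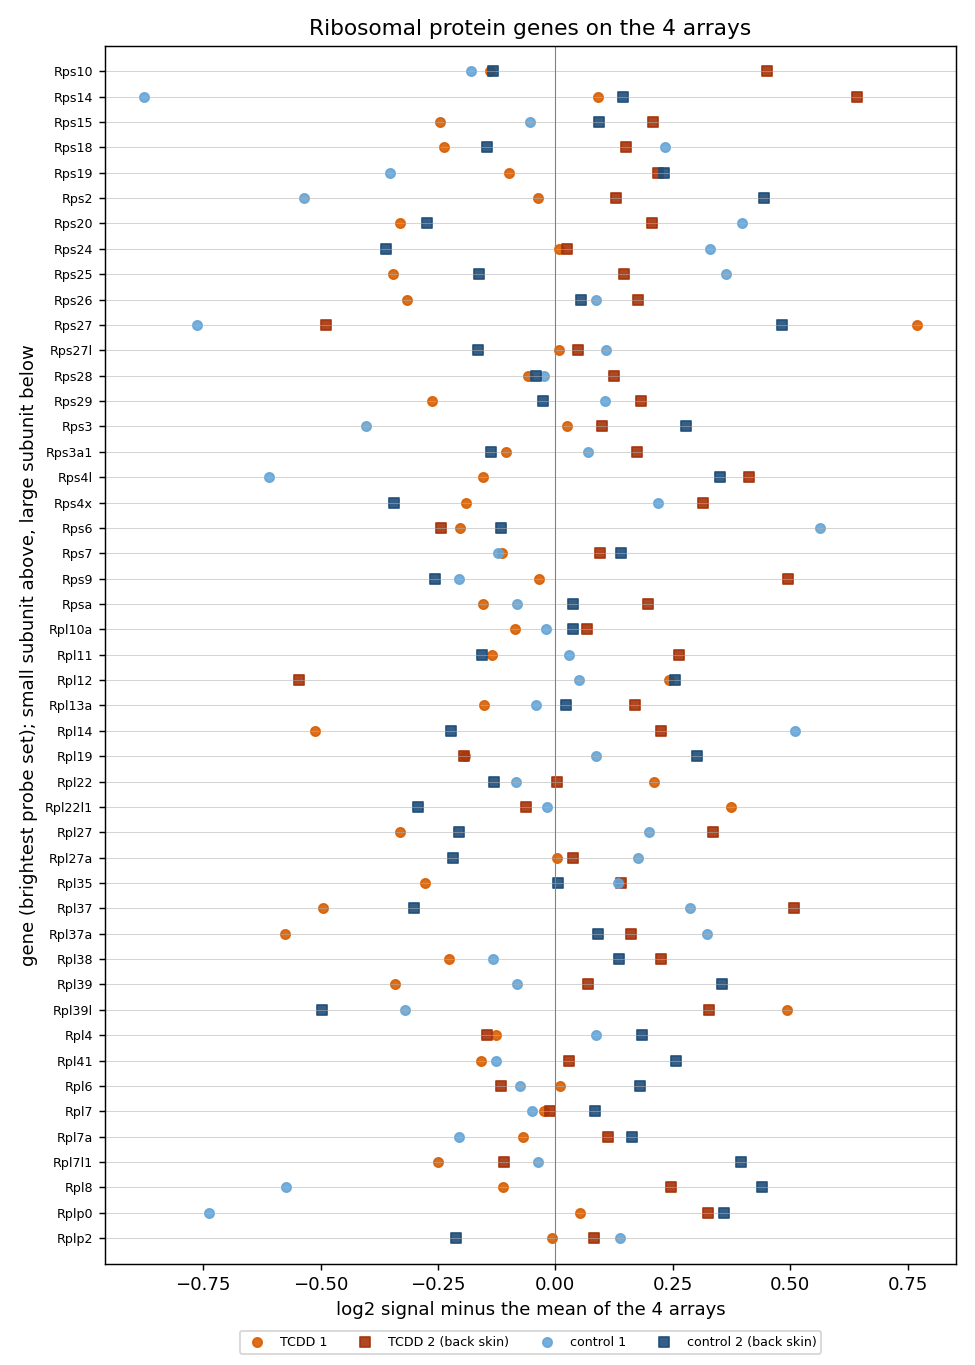
Log2 signal of the brightest tested probe set of each of 47 ribosomal protein genes on TCDD 1, TCDD 2, control 1 and control 2, as the difference from the gene's mean over the 4 arrays (circles, no site named; squares, back skin). The orange and brown TCDD points and the blue control points intermix for most genes, and Rps9 and Rpl39l are among the few whose TCDD points both lie right of both controls.

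Rps9, a small-subunit protein, stood highest. Its probe set 1433689_s_at had signals of 1790 on TCDD 1 and 2170 on TCDD 2, against 925.4 on control 1 and 1146 on control 2. Both TCDD arrays exceeded both controls, by 0.94 ± 0.34 on the log2 scale (SE, n = 2 arrays a group) with an unadjusted p of 0.023 and an adjusted p of 0.9999 in limma. The log2 ratio was 0.92 in back skin and 0.95 where no site was named, nearly the same. A brighter probe set of the same gene, 1434624_x_at, had 8481 and 12250 with TCDD, against 7540 and 7278 in controls, a difference of 0.46 ± 0.31. Another Rps9 probe set, 1426958_at, had a mean signal below the filter and was not tested, with 71.0 and 6.5 against 86.3 and 128.8.

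Rpl39l is a paralogue of Rpl39, a small protein of the peptide exit tunnel, and is known for its expression in testis. Its single probe set read 458.8 and 409.0 with TCDD, against 261.1 and 231.0 in controls. The TCDD signals were both higher, with a log2 difference of 0.82 ± 0.34 and an unadjusted p of 0.040 in limma, and ratios of 0.82 in back skin and 0.81 without a named site. Rpl39 itself ran the other way, with 538.9 and 716.0 against 645.0 and 872.9, a difference of -0.27 ± 0.34. Its TCDD and control signals overlapped.

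Rps10, which sits by the messenger RNA entry site, had 5 tested probe sets, all with a positive difference, from 0.16 to 0.75. The largest belonged to 1439374_x_at, with 866.9 and 746.0 with TCDD, against 629.0 and 362.6 in controls (0.75 ± 0.35). The brightest, 1438723_a_at, had 6271 and 9432 against 6098 and 6294, so that TCDD 2 alone stood clear of the controls. Another Rps10 probe set, below the filter, 1436384_at, was the reverse, with 74.8 and 59.9 against 158.9 and 157.6.

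Rps14, a small-subunit protein whose loss of a copy underlies the anaemia of the human 5q deletion syndrome, also passed an unadjusted p of 0.05. Its probe set 1437706_x_at had 11873 and 17405 with TCDD, against 6079 on control 1 and 12322 on control 2 (0.73 ± 0.30, p of 0.037 in limma). TCDD 1 lay below control 2, so the groups overlapped, and control 1 was the lowest array by far. The other probe set, 1436586_x_at, had 10359 and 13066 against 6647 and 13048, with 0.00 for the back skin ratio. Control 1 also carried the 3′ to 5′ actin ratio of 49.7, and the part of RNA quality in these values was not tested.

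Rpl41, which encodes a very short peptide of the large subunit, depended on the probe set. Probe set 1454639_x_at had 428.0 and 463.7 with TCDD, against 161.9 and 366.6 in controls (0.87 ± 0.38). Both TCDD arrays were higher here, but the brighter probe sets 1422623_x_at and 1455578_x_at had differences of -0.13 and 0.01. The last, 1433530_at, was near the filter and read 111.5 and 206.9 against 113.0 and 115.9.

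On the lower side, Rps6, the small-subunit protein phosphorylated by S6 kinases downstream of mTOR, read 866.5 and 842.2 with TCDD, against 1474 and 920.6 in controls. Both TCDD signals were below both controls, with a difference of -0.45 ± 0.36 on the log2 scale, and control 1 stood above the other 3 arrays. Another Rps6 probe set, below the filter, 1453466_at, had overlapping groups, with 102.1 and 102.3 against 88.6 and 116.0. Rpl19, which forms a bridge between the subunits, had 7740 and 7727 against 9388 and 10903 (-0.39 ± 0.30), without overlap. Rpl7l1, a paralogue of Rpl7, had 1643 and 1811 against 1902 and 2567 with probe set 1452049_at (-0.36 ± 0.34), while its other probe set 1426386_at had a difference of 0.14 ± 0.39.

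The 2 most negative differences came from dim probe sets of genes whose other tested probe sets did not share them. Rpl35, which lies by the exit tunnel, had 154.2 and 94.0 with TCDD, against 177.0 and 211.7 in controls with 1454833_at (-0.69 ± 0.45). Its other 5 probe sets had differences between -0.14 and 0.17. Rps20, a protein of the small-subunit head, had 111.9 and 121.9 against 165.9 and 201.1 with 1421935_at (-0.65 ± 0.42), and 0.06 and -0.12 with the bright probe sets 1456373_x_at and 1456436_x_at. A further Rps20 probe set below the filter, 1450417_a_at, was also lower with TCDD, with 74.5 and 77.9 against 98.8 and 97.1.

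Among the 19 genes with more than 1 tested probe set, the differences had the same sign throughout in 6 (Rpl27, Rps10, Rps14, Rps28, Rps29 and Rps9) and mixed signs in 13. Of the 87 probe sets, 38 end in _x_at and 2 in _s_at, suffixes of probe sets that can also bind other transcripts. In addition, ribosomal protein genes have many processed pseudogenes, and which copy gave a signal is uncertain. Rps28 was the most even, with 3 probe sets at 0.07, 0.08 and 0.09. Rps29 had 3 at -0.09, -0.22 and -0.08. The widest spreads were those of Rpl41 (1.0 between its highest and lowest difference), Rpl35 (0.85), Rps20 (0.71) and Rpl13a (0.69).

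**Figure D2:**
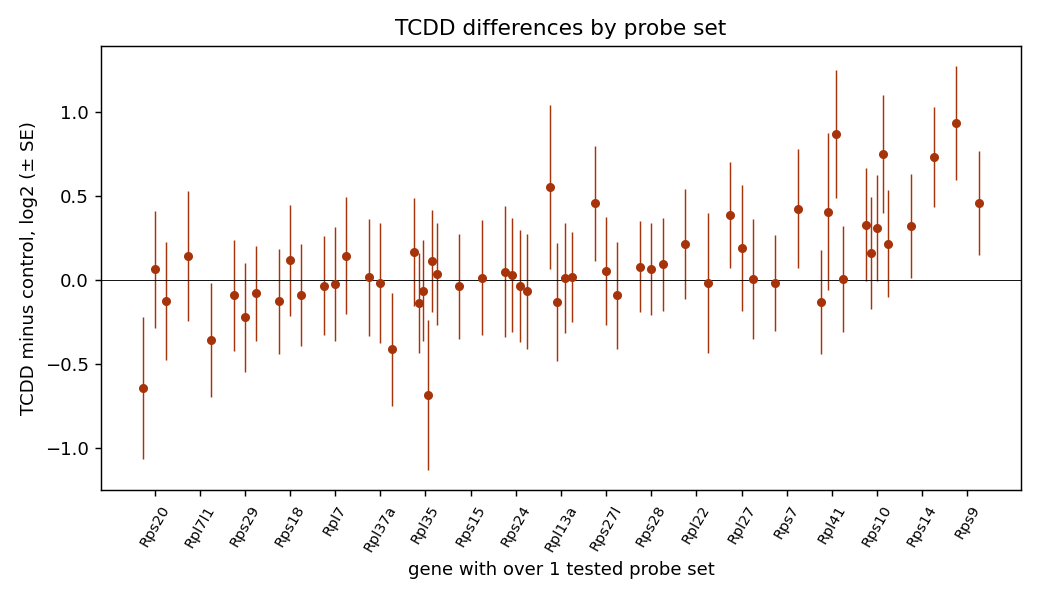
TCDD minus control log2 difference (points) with its SE (bars) for each tested probe set of the 19 genes with more than 1, genes ordered by their median difference. The spread within Rpl41, Rpl35, Rps20 and Rpl13a is wider than the distance between most genes.

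Of the other genes picked for their roles, none had an unadjusted p under 0.05. The stalk protein Rplp0 had 12458 and 15062 with TCDD, against 7209 and 15413 in controls, so that control 1 alone was low (0.38 ± 0.32). Its partner Rplp2 had 10758 and 11447 against 11887 and 9339 (0.07 ± 0.30). Rpsa, also known as a laminin receptor precursor, had 12552 and 16034 against 13215 and 14342 (0.04 ± 0.28). TCDD 2 was the highest of the 4 for Rpsa and lay between the controls for both stalk genes.

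Rpl11, which with the 5S RNA binds Mdm2 and so links ribosome assembly to p53, read 4750 and 6267 with TCDD, against 5327 and 4681 in controls (0.13 ± 0.33). Rps3, at the messenger RNA entry channel, had 10673 and 11232 against 7922 and 12718 (0.13 ± 0.31). Rps19, mutated in human Diamond-Blackfan anaemia, had 12089 and 15061 against 10132 and 15178 (0.12 ± 0.29). In all 3 the TCDD and control arrays overlapped.

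Rpl38, known in mouse embryos for its part in translating Hox messenger RNAs, had 16660 and 22800 with TCDD, against 17773 and 21409 in controls, a difference of 0.00 ± 0.27 as rounded. Rpl22, which mouse T cells need for their development, had 3623 and 3142 against 2956 and 2861 with 1416603_at (0.21 ± 0.33). Its paralogue Rpl22l1 had 3336 and 2467 against 2546 and 2102 (0.31 ± 0.33). Both TCDD signals exceeded both controls for Rpl22 but not for Rpl22l1, and TCDD 1 was the highest array for each.

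Of the other paralogue pairs, Rps27l, a p53 target, had 3 probe sets with differences of 0.46, 0.06 and -0.09, and Rps27 had 0.28 ± 0.55. Rpl7 had 3 at -0.03, -0.02 and 0.15. Rps4x had 10814 and 15349 with TCDD, against 14354 and 9723 in controls (0.13 ± 0.34), and Rps4l, which RefSeq lists as a transcribed pseudogene, had 982.5 and 1455 against 717.1 and 1395 (0.26 ± 0.35). Rpl3l, a paralogue of Rpl3 made in muscle, lay below the filter, with 14.5 and 16.1 against 92.3 and 11.7.

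Set apart by site, the TCDD ratios of the same genes ran in opposite directions more often than together, as they also did over all tested probe sets. Of the 87 probe sets, 16 (18.4%, against 19.3% of all tested) were higher with TCDD at both sites and 9 (10.3% against 21.3%) lower at both. A further 43 (49.4%, against 25.8% of all tested) were lower on TCDD 1 than control 1 and higher on TCDD 2 than control 2, and 19 (21.8% against 33.5%) were the reverse. The median log2 ratio was 0.16 in back skin and -0.07 where no site was named, against -0.06 and 0.03 for all tested probe sets. Under quantile normalization the share of 49.4% became 31%, against 31.2% of all tested. The median became 0.10 in back skin and 0.07 without a named site. Under median centring the share was 54%, against 37.2%, where the all-probe medians themselves moved to 0.07 in back skin and -0.10 elsewhere. Pearson's r between the ratios of the 2 sites was -0.22 across the 87 probe sets and -0.25 across all tested. These are correlations across probe sets, which are not independent replicates.

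**Figure D3:**
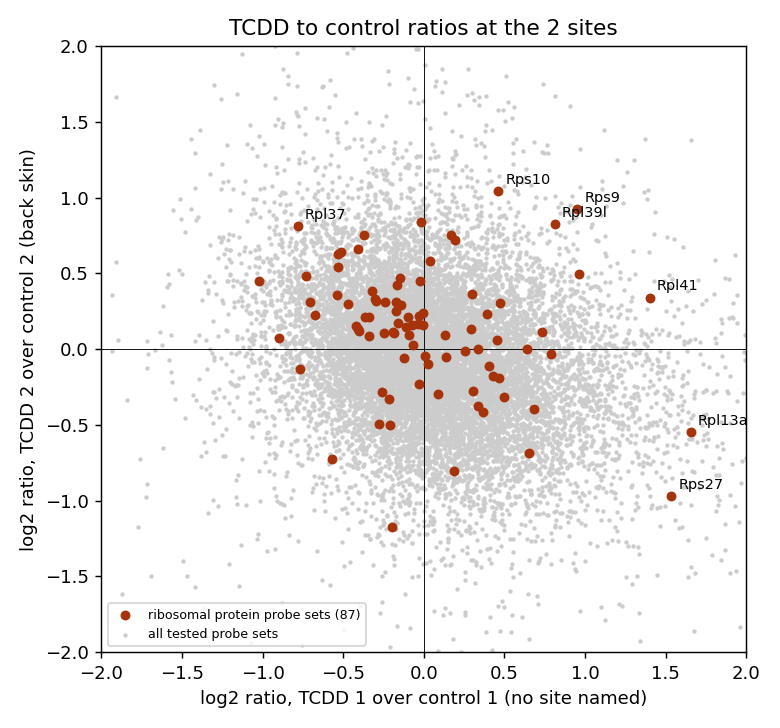
Log2 ratio of TCDD 2 over control 2 (back skin, vertical) against TCDD 1 over control 1 (no site named, horizontal) for 87 ribosomal protein probe sets (red) and all 13576 tested (grey), with both axes cut at -2 and 2. Of the red points, 43 lie in the upper left quadrant, 19 in the lower right, 16 in the upper right and 9 in the lower left.

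Among probe sets whose ratios had opposite signs at the 2 sites, the 6 with the largest value of the smaller ratio, sign left aside, were named. Rps27, a small-subunit protein, read 480.6 on TCDD 1 and 200.9 on TCDD 2, against 166.0 on control 1 and 393.9 on control 2. The log2 ratio of TCDD to control was -0.97 in back skin and 1.53 where no site was named. The summed T cell marker signal and Cd207 had the same high pair, TCDD 1 and control 2. Among the 12 Langerhans cell markers, H2-Eb1 and Cdh1 had this pair too. Id2, Csf1r, H2-Aa, Epcam, Cd74, H2-Ab1, Tgfbr1, Itgax and the dim Runx3 did not, nor did the summed signal of the 12. The part of these markers in the Rps27 result was not tested. Rpl13a, known in human myeloid cells for its role in silencing inflammatory messenger RNAs, had 6019 and 5226 with TCDD, against 1910 and 7630 in controls with 1417608_a_at. Control 1 stood at -1.70 from the mean of the other 3 on the log2 scale, while the other 3 probe sets of Rpl13a had control 1 between -0.05 and 0.30 from that mean.

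Rpl37, Rpl27, Rps24 and a dim probe set of Rpl22 were the other 4. Rpl37 had 747.9 and 1500 with TCDD, against 1286 and 855.3 in controls, with ratios of 0.81 in back skin and -0.78 without a named site. Rps24, another small-subunit gene mutated in Diamond-Blackfan anaemia in humans, had 1531 and 1730 against 2211 and 1119 with 1428530_x_at. All 4 of its tested probe sets had their highest signal on control 1. Rpl27 had 4898 and 7766 against 7069 and 5344 with 1453096_x_at, and 1448217_a_at (2762 and 4612 against 3569 and 2734) also had its 2 highest signals on TCDD 2 and control 1. The third Rpl27 probe set, 1416099_at, was instead higher with TCDD at both sites, with ratios of 0.30 in back skin and 0.47 elsewhere. Rpl22 with 1448398_s_at had 274.9 and 249.0 against 175.1 and 400.0. Each site holds 1 array a group, so these differences between sites have no replicate check and were not tested.

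The order of the 4 arrays made the same pattern visible. TCDD 2 had the highest signal in 36 of 87 ribosomal protein probe sets (41.4%, against 20.6% of all tested) and TCDD 1 the lowest in 31 (35.6% against 19.9%). TCDD 2 exceeded TCDD 1 in 67 (77%, against 46.9%). Control 1 was lowest in 27 (31.0% against 31.7%) and control 2 highest in 25 (28.7% against 30.3%). Control 1 was highest in 21.8%, against 27.6% of all tested. With quantile normalization the share highest on TCDD 2 was 28.7% (22.7% of all tested) and that lowest on TCDD 1 was 23% (22% of all tested), while control 1 was lowest in 41.4% (27.5% of all tested). With 1 probe set a gene and quantile normalization, the shares highest on TCDD 2 and lowest on TCDD 1 were 27.7% and 25.5%. As deposited, with 1 probe set a gene, these 2 shares were 38.3% and 40.4%, against 20.6% and 21.4% of all genes. The shares differed by suffix: among 38 ribosomal protein probe sets ending in _x_at, TCDD 2 was highest in 50%, against 34.1% of all _x_at probe sets, among 27 ending in _a_at, in 44.4%, against 22.3% of all such probe sets, and among 20 ending in plain _at, in 20%, against 18.4%. These shares describe 4 arrays and were not tested.

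**Figure D4:**
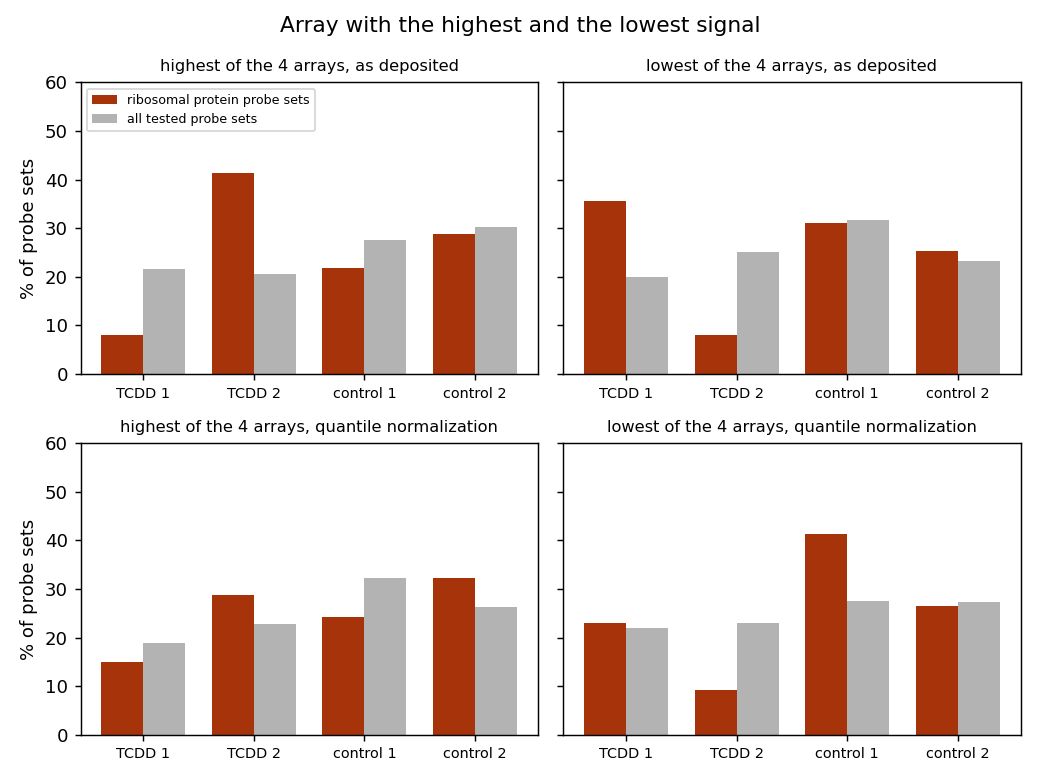
Percent of probe sets with their highest (left) or lowest (right) signal on each array, for ribosomal protein probe sets (red) and all tested probe sets (grey), as deposited (top) and after quantile normalization (bottom). As deposited, 41.4% of the red set was highest on TCDD 2 against 20.6% of the grey, and after quantile normalization 28.7% against 22.7%.

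The summed level moved with the same array. All 101 ribosomal protein probe sets together held 3.36% of the signal of all probe sets on TCDD 1 and 3.88% on TCDD 2, against 3.40% on control 1 and 3.57% on control 2. By this share the controls lay between the TCDD arrays. Counted with 1 probe set a gene, the shares were 3.61% and 4.19% against 3.57% and 3.96%. The geometric mean signal over the 87 tested was 3568 and 4107 against 3535 and 3771. By these last measures control 1 was slightly below TCDD 1, and TCDD 2 was the highest array by all of them.

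Between sites, back skin against no site named, 0 of 87 ribosomal protein probe sets were called at an adjusted p of 0.05 in limma, as were 0% of all tested, with a smallest adjusted p of 0.9994. An unadjusted p under 0.05 was reached by 1 of 87 (1.15%), against 2.02% of all tested. The median log2 difference of back skin minus no site named was 0.13, with quartiles of -0.03 and 0.33, against 0.01 for all tested. Back skin was higher in both treatments in 32 of the 87 (36.8%), against 22.8% of all tested. Under median centring the median was 0.07, against -0.05 for all tested. The median rested on single arrays: it was 0.05 without TCDD 2, against 0.04 for all tested, and 0.06 without TCDD 1, against 0.02. Without control 1 it was 0.19, against -0.02 for all tested, and without control 2 it was 0.20, against 0.00.

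Among probe sets higher in back skin in both treatments, the largest site differences belonged to genes whose control 1 signal was low. Rpl13a 1417608_a_at had a larger one (0.90 ± 0.49) but was lower in back skin with TCDD, and is left aside here. Rps14 with 1437706_x_at had that unadjusted p under 0.05, with 0.79 ± 0.30 and p of 0.028 in limma, and 1436586_x_at had 0.65 ± 0.31. Rplp0 had 0.69 ± 0.32 and the large-subunit gene Rpl8, whose protein lies near the catalytic centre, had 0.69 ± 0.32, with 8142 and 9311 in back skin, against 6358 and 4610 elsewhere (TCDD before control each time). Rps15 with 1416089_at had 3462 and 4197 against 2616 and 2112 (0.70 ± 0.34), and Rps4l had 0.76 ± 0.35. Control 1 was the lowest of the 4 arrays for each of these, at -1.17 to -0.67 from the mean of the other 3. This was partly fixed by the choice of probe sets. Where back skin is higher in both treatments, only TCDD 1 or control 1 can be lowest. Control 1 was also the array with the high 3′ to 5′ ratios, whose part was not tested.

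Lower in back skin in both treatments were Rps24 with 1453362_x_at, at 2163 and 2005 in back skin, against 3057 and 3472 elsewhere (-0.65 ± 0.33), and Rps10 with 1439374_x_at (-0.51 ± 0.35). Rps6 had -0.36 ± 0.36 and Rpl22l1 -0.36 ± 0.33. Rps27l had -0.27 ± 0.34 with 1423254_x_at and -0.26 ± 0.32 with 1450925_a_at. None of these passed the adjusted test.

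Leaving out single arrays changed the count of calls. Without control 2, the array whose labels conflict, 2 ribosomal protein probe sets were called higher with TCDD in limma, against 2.1% of all tested: Rpl13a 1417608_a_at, by 1.55 with an adjusted p of 0.011, and Rpl41 1454639_x_at, by 1.46 with an adjusted p of 0.017. That fit sets both TCDD arrays against control 1 alone, which had the lowest signal for both probe sets, and assumes that a lone array varies like the others. Without TCDD 1, Rpl13a 1417608_a_at was called higher in back skin by 1.73 with an adjusted p of 0.033, against 0.656% of all tested, and control 1 was again the lone array of its group. Without control 1, the count for TCDD was 0 among ribosomal protein probe sets, the difference for that Rpl13a probe set was -0.44 and that for the Rpl41 probe set 0.28.

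The largest TCDD differences also moved with single controls. Rps9 1433689_s_at had 0.78 without control 1 and 1.09 without control 2, and Rpl39l had 0.91 and 0.73. Rps10 1439374_x_at had 1.15 without control 1 and 0.35 without control 2. Rps14 1437706_x_at had 0.22 and 1.24 in the same order, and 0.46 without TCDD 2. Rps9 1434624_x_at had 0.435 without control 2 and 0.20 without TCDD 2. On the lower side, Rps6 had -0.11 without control 1 and -0.79 without control 2, Rpl19 had -0.50 and -0.28, and Rpl7l1 1452049_at had -0.57 and -0.14. The dim probe sets Rps20 1421935_at and Rpl35 1454833_at had -0.78 and -0.81 without control 1, and -0.51 and -0.56 without control 2. They had -0.58 and -1.04 without TCDD 1, and -0.71 and -0.33 without TCDD 2. Rps9 1433689_s_at and Rpl39l thus kept differences over 0.7 with any array left out, while those of Rps10, Rps14 and Rps6 did not keep their size.

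Genes that work with the ribosomal proteins, each read by its brightest probe set, had no called member either. Over all genes, each by its brightest probe set, 17.9% were higher with TCDD at both sites and 22.8% lower at both, and TCDD 2 was highest in 20.6%. Of 73 tested mitochondrial ribosomal protein genes, 16 were higher with TCDD at both sites and 12 lower at both, with a median difference of 0.01. TCDD 2 was highest in 21.9% of them, beside 38.3% of the cytosolic genes. The shares by array in these gene lists are as deposited. Under quantile normalization the cytosolic share was 27.7%, and the shares of the other lists were not taken. Mrpl52 had 1001 and 1398 with TCDD, against 1699 and 2375 in controls (-0.76 ± 0.34), and Mrps31 had 643.2 and 619.9 against 378.0 and 380.9 (0.73 ± 0.34). Of 33 ribosome biogenesis genes, 1 was higher at both sites and 8 lower at both, with a median of -0.10. Nop56, of the complex that guides methylation of ribosomal RNA, had 393.5 and 482.4 against 830.7 and 590.2 (-0.68 ± 0.36), and Polr1b, a subunit of RNA polymerase I, had 327.9 and 305.0 against 233.6 and 175.1 (0.64 ± 0.35). These 4 were picked for large differences within their lists. None of them had overlapping groups, which also held for 25.5% of all genes by their brightest probe set, and none passed the test.

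Of 30 translation factor genes, 3 were higher at both sites and 8 lower at both, with a median of -0.02, and of 12 genes of mTOR signalling and its regulators of ribosomal protein translation, 4 were higher at both and 0 lower, with a median of 0.16. Among 9 other genes with TOP messenger RNAs the median was 0.03, TCDD 2 was highest in 44.4% and TCDD 1 lowest in 22.2%, against 20.6% and 21.4% of all genes. Fau, whose product carries the small-subunit protein eS30 fused to a ubiquitin-like domain, had 3758 and 5088 with TCDD, against 5076 and 3309 in controls (0.09 ± 0.37). Its signal was lower on TCDD 1 than on control 1 and higher on TCDD 2 than on control 2. Pabpc1, the poly(A)-binding protein and itself a TOP gene, had 13791 and 15314 against 4956 and 16586 (0.68 ± 0.39), with control 1 alone low.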

How the data were processed

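The deposited values were linear MAS5 signal intensities. MAS5 and affy are the tools in the submitters' processing notes, which give no version. The trimmed mean of every deposited intensity column, leaving out 2% of probe sets at each end, was 500. Of 22690 probe sets, 64 controls served for RNA quality only. Names came from the platform annotation (20380 probe sets with 1 symbol, 691 with several, 1555 unnamed), and all 49 member symbols matched RefSeq by gene ID.

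Signals were taken to log2. Probe sets with a mean log2 of at least 6.85 (a geometric mean signal of 115.4, the 40th percentile) were fitted with limma 3.58.1 (R 4.3.3) on treatment plus site, eBayes with a trend and Benjamini-Hochberg adjustment over all 13576. With 4 arrays and this model, 1 residual degree of freedom remains, and precision is limited by the number of arrays. Replicate numbers follow accession order and match the site labels, so the site term is also a replicate term. Whether they pair samples in any other way is not stated in the labels. Site ratios in TCDD and in control had r = -0.18 across probe sets, which cannot show whether samples are paired.

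Members and gene lists were chosen with earlier results of these data known. Named members were, for each direction, 6 probe sets of the largest TCDD difference among those of 1 sign at both sites, 6 likewise for site, the 6 most opposed between sites (by the smaller of the opposite ratios), the 4 genes whose probe sets lay farthest apart, and genes fixed by role. Rps28 and Rps29 and probe sets below the filter were named after their values were seen. Of the fixed genes, Rplp1, Rpl3, Rpl5, Rps27a, Rpl10, Rpl36a and Rpl36al were not analysed here. Alternatives were another normalization, filter, floor, offset or variance model, no site term, each array left out, and other choices of probe sets.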

Additional observations from a re-analysis of the deposited data

Results flagged for a closer look

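The 6 most opposed ribosomal protein probe sets were picked for TCDD to control ratios of opposite signs at the 2 sites. The median of all 87 tested also had opposite signs as deposited. Under quantile normalization both medians were positive, at 0.10 in back skin and 0.07 elsewhere. Each site holds 1 array a group, so the differences between sites were not tested. On the log2 scale, Rps27 had -0.97 in back skin and 1.53 where no site was named. Rpl37 had 0.81 in back skin and -0.78 elsewhere. Rpl22 (1448398_s_at) had -0.68 in back skin and 0.65 elsewhere, and Rpl13a (1417608_a_at) had -0.55 in back skin and 1.66 elsewhere. Rps24 (1428530_x_at) had 0.63 in back skin and -0.53 elsewhere, and Rpl27 (1453096_x_at) had 0.54 in back skin and -0.53 elsewhere. The median of the 87 was 0.16 in back skin and -0.074 elsewhere.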

How the results depend on the processing

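The counts of ribosomal protein probe sets called for TCDD and for site were 0 under quantile normalization, median centring, no filter, a filter at the 60th percentile, a floor of 50, an offset of 50, no variance trend, no site term, 1 probe set a gene and no _x_at or _s_at probe sets. Without the site term (no replicate block) the count for TCDD was 0 and the median difference stayed at 0.04. That term is also the replicate number, since replicate numbers match the site labels. With single arrays left out, calls for TCDD ranged between 0 and 285 over all probe sets (12 without control 1 and 285 without control 2) and between 0 and 2 among ribosomal protein probe sets, and calls for site between 0 and 89 and between 0 and 1 (89 and 1 without TCDD 1). The median TCDD difference of the ribosomal protein probe sets then ranged between -0.04 and 0.14. Without control 2 it was 0.05, against 0.00 for all tested.

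Under quantile normalization, chosen for the array order after seeing the data, 23% of ribosomal protein probe sets were lowest on TCDD 1. In 31%, TCDD 1 was lower than control 1 and TCDD 2 higher than control 2. Quantile normalization also turned the sign of the TCDD difference of Rpl13a 1455001_x_at (-0.0019), Rpl38 (0.0935) and Rpl7 1426162_a_at (0.0085), all near 0 before. The cause was not tested.

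With single arrays left out, the log2 TCDD difference changed sign for several named probe sets, none of them past the threshold on 4 arrays. It ranged between -0.17 and 0.19 for Rpl13a 1455001_x_at, between -0.14 and 0.18 for 1455485_x_at, between -0.29 and 0.029 for 1433928_a_at, and between -0.44 and 1.55 for 1417608_a_at. It ranged between -0.23 and 0.23 for Rpl38, and between -0.33 and 0.29, -0.079 and 0.37, and -0.10 and 0.033 for Rpl7 1426162_a_at, 1426163_x_at and 1415979_x_at. It ranged between -0.35 and 0.91 for Rps27, -0.13 and 0.22 for Rpsa, -0.072 and 0.33 for Rpl11, -0.17 and 0.41 for Rps19, -0.61 and 0.58 for Rpl22 1448398_s_at, -0.24 and 0.058 for Rps27l 1450925_a_at, and -0.080 and 0.19 for 1435429_x_at. It ranged between -0.16 and 0.41 for Rps4x, -0.22 and 0.74 for Rps4l, -0.17 and 0.93 for Rplp0, -0.10 and 0.25 for Rplp2, -0.22 and 0.47 for Rps3, and -0.30 and 0.58 for Rpl7l1 1426386_at. The site difference ranged between -0.74 and 0.023 for Rps6, -1.03 and 0.015 for Rps10 1439374_x_at, and -0.63 and 0.090 for Rps27l 1423254_x_at.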

Other observations

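Markers of other skin cells were summed on each array by the brightest probe set of each gene. Cd3e, a subunit of the T cell receptor complex, read 386.9 and 112.7 with TCDD, against 197.5 and 471.3 in controls, the same high pair (TCDD 1 and control 2) as Rps27. Keratinocyte markers (9 of 10 with a named probe set) summed to 1170 and 1346 with TCDD, against 1127 and 1087 in controls. Melanocyte markers (6 of 7) summed to 1346 and 1280 against 1169 and 1760. Among mRNAs of translation, Eif3b, a scaffold of the initiation factor that binds the small subunit, read 1167 and 1138 with TCDD, against 599.3 and 1219 in controls, with control 1 alone low. Eef2, the factor that moves the ribosome along the mRNA, read 3448 and 2460 against 3440 and 4104, and Naca, which contacts nascent chains at the exit tunnel, read 3115 and 2170 against 3905 and 2856. Neither Eef2 nor Naca passed the test in limma.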
